A study of Mus musculus with 20 samples.

Results

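The clustered histone genes are the genes whose symbols begin with Hist1h, Hist2h, Hist3h or Hist4h. All rows of the deposited expression table with such a symbol were taken, 68 of 23235 genes; the rule uses symbols and no measured value, but the family was picked with earlier results of these data known. They comprised 6 H1, 18 H2A, 19 H2B, 12 H3 and 13 H4 genes. By cluster, 54 belonged to Hist1 on chromosome 13, 10 to Hist2 on chromosome 3, 3 to Hist3 on chromosome 11 and 1 to Hist4 on chromosome 6. The study compared mouse spermatocytes labelled WT or Cxxc1-null, from adult males on a C57BL/6 background, at the stages labelled pachytene, diplotene and meiosis II. Each of the 6 groups had 2 libraries, so n = 2 per group throughout, and each library was made from 500 cells sorted by flow cytometry. The promoter or cell type that drove the deletion of Cxxc1 was not given in the labels. Whether replicate libraries came from different animals is not stated in them either, so p-values reflect only how far these libraries differ, and that spread may be technical. The study's 8 H3K4me3 libraries were not analysed here.

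Most clustered histone genes are replication-dependent: they are transcribed during S phase, and their mRNAs end in a conserved stem loop in place of a poly(A) tail. The male germ line adds testis variants. Hist1h1t encodes the linker histone H1t of spermatocytes and spermatids, Hist1h2ba encodes the testis H2B variant TH2B, and its neighbour Hist1h2aa encodes the testis H2A variant TH2A. CXXC finger protein 1, the product of Cxxc1, binds unmethylated CpG dinucleotides and belongs to the SETD1 complexes that methylate histone H3 at lysine 4. The libraries were primed with oligo-dT, which captures polyadenylated RNA. The values below therefore describe RNA captured by oligo-dT and need not reflect the stem-loop transcripts of these genes. Whether the captured RNA of a given gene was polyadenylated was not tested. Several clustered genes are near-identical copies, and fragments shared among them can have been assigned to any of them. Strand was not described in the labels, so signal from an overlapping or antisense transcript cannot be separated from that of the histone gene.

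Promoter windows of 6 clustered histone genes are shown because 4 of them differed between genotypes and the other two rose most in WT meiosis II. Each is a window of 300 bases around the RefSeq transcription start in GRCm38.p6, a later build than the mm9 build of the expression table. All 6 lie on chromosome 13. Hist1h2aa occupies chr13:23934187-23934486 on the plus strand, Hist1h1t chr13:23695561-23695860 on the plus strand and Hist1h4h chr13:23530794-23531093 on the plus strand. Hist1h2bb occupies chr13:23746484-23746783 on the plus strand, Hist1h2bp chr13:21787238-21787537 on the plus strand and Hist1h4a chr13:23761200-23761499 on the minus strand. Letters run 5′ to 3′ along each gene, and capitals mark CpG dinucleotides.
Hist1h2aa: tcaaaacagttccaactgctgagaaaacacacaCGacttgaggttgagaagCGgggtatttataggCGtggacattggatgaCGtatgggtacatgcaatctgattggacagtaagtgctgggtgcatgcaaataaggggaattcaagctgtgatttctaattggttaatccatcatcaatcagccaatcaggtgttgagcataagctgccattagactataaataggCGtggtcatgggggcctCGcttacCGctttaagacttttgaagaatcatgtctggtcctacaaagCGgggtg
Hist1h1t: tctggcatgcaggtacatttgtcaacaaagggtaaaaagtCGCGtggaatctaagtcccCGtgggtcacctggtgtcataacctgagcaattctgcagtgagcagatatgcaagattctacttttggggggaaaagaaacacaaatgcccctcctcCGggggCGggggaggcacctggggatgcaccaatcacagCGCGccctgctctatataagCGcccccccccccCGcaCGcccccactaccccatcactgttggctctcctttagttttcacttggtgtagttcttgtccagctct
Hist1h4h: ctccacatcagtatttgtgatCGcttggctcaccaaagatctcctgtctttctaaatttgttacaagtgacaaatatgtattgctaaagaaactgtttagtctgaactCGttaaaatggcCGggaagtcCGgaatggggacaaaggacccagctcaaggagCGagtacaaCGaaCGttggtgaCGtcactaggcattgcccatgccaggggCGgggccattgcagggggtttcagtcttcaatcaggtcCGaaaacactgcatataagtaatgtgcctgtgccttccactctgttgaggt
Hist1h2bb: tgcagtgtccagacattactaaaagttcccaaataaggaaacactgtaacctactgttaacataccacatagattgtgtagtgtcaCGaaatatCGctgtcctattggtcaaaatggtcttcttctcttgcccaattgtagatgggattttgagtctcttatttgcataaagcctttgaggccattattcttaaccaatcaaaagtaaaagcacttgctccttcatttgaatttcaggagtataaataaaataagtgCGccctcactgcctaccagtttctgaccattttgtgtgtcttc
Hist1h2bp: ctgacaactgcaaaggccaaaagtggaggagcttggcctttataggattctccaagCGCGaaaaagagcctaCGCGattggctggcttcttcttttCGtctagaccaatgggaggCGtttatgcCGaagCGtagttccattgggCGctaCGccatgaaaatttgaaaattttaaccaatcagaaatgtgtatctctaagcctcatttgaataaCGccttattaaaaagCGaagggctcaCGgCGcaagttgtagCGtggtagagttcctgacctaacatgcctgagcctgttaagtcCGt
Hist1h4a: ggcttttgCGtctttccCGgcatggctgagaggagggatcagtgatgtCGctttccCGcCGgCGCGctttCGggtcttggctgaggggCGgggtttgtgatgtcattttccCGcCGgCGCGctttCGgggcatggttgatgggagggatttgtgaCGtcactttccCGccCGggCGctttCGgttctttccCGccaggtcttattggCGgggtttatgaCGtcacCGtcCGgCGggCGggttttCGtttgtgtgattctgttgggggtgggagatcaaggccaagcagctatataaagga
Hist1h2bb had 3 CpG dinucleotides in its window, Hist1h2aa 8, Hist1h1t 10, Hist1h4h 10, Hist1h2bp 16 and Hist1h4a 27. The windows of the 61 members found in the RefSeq table held a median of 11, with a range of 3 to 41, and those of 32851 windows of all genes a median of 7. The members shown spanned windows poor and rich in CpG.

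The Hist1h2aa window also holds most of the promoter of its neighbour. Hist1h2aa and Hist1h2ba are transcribed away from each other, with 280 bases between the genes, and their windows overlap by 220 bases. Motifs were searched on both strands and may overlap at their ends. CCAAT, the box bound by NF-Y, was in 85.2% of the members' windows and 37.4% of all windows. TATAAA was in 57.4% against 13.6%, and the octamer ATTTGCAT in 21.3% against 1.74%. TGACGTCA, the cyclic AMP response element, was in 6.56% against 1.79%, and AACNGT, a core motif of MYB factors, in 34.4% against 26.1%. The Hist1h2aa window held 4 matches of CCAAT and 1 of ATTTGCAT. The Hist1h4h window held 1 match of TGACGTCA and none of CCAAT or TATAAA, and the Hist1h4a window held 2 of TGACGTCA. These are descriptions of letters, and neighbouring members share parts of their windows.

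Few clustered histone genes gave signal in these libraries primed with oligo-dT. Levels are in FPKM, fragments scaled by gene length and library total. Where levels of different genes are set side by side, the limits on shared fragments and overlapping transcripts given above apply. Of the 68 members, 19 were listed at 0 in all 12 libraries and a further 21 stayed under 1 FPKM in all. Another 5 reached 1 FPKM in exactly 1 library, with a highest value of 2.26 FPKM, and these 45 were not tested. The remaining 23 members, 33.8% of the 68, passed the filter of at least 1 FPKM in at least 2 libraries, against 55.8% of all genes. They were 1 H1, 6 H2A, 6 H2B, 3 H3 and 7 H4 genes. Between 14 and 18 members reached 1 FPKM in a library, which is 20.6 to 26.5% of them, against 42.3 to 50.0% of all genes. The replication-dependent H1 genes were among the low ones: Hist1h1b, Hist1h1c, Hist1h1d and Hist1h1e stayed under 1 FPKM in all 12 libraries, and Hist1h1a reached 1.33 FPKM in 1 library. Hist1h2bp, Hist3h2a, Hist1h4h, Hist2h2be, Hist1h4c and Hist2h3c2 were at 1 FPKM or more in all 12.

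**Figure D1:**
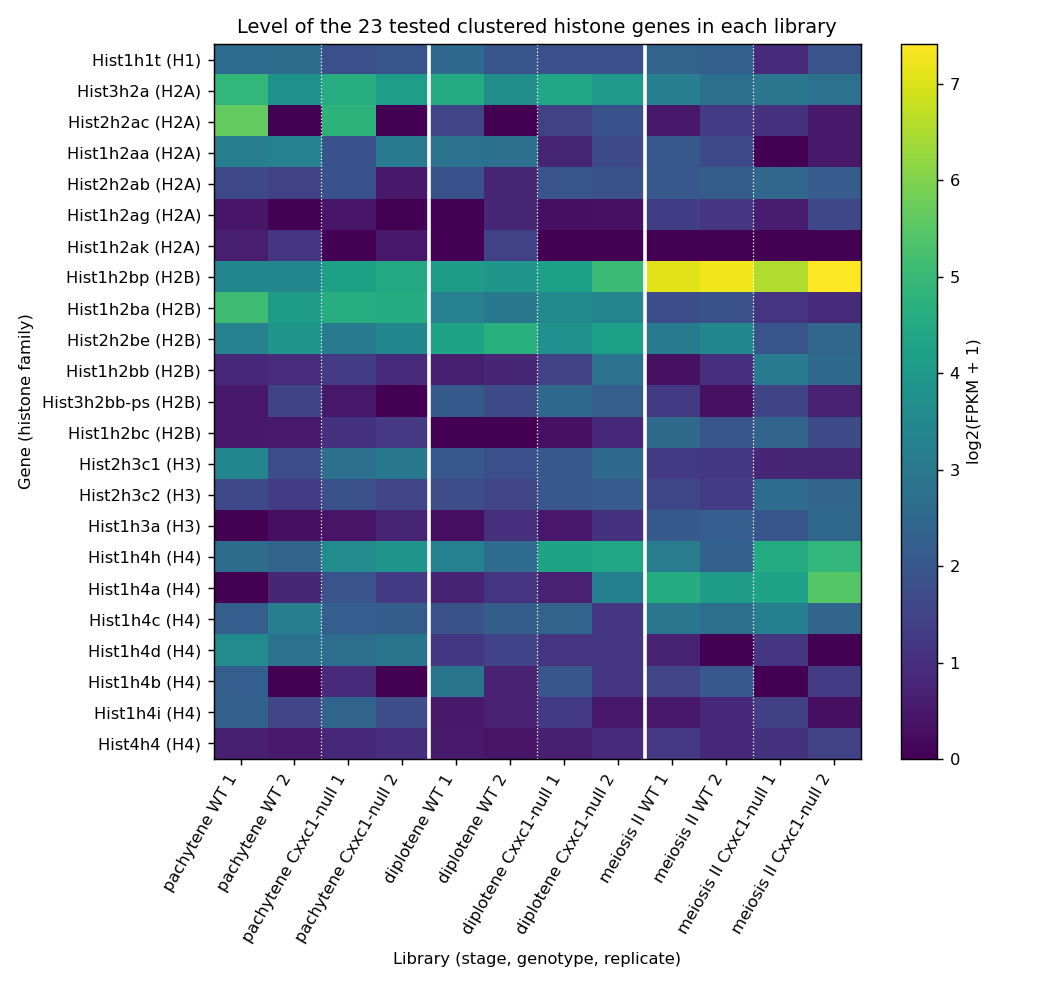
Level of the 23 tested clustered histone genes (rows, with their histone family) in the 12 libraries (columns, grouped by stage and genotype), as colour on a log2(FPKM + 1) scale. Hist1h2bp is brightest in the 4 meiosis II libraries, at 91.8 to 169.7 FPKM, Hist1h2ba is brightest in pachytene, and Hist1h4h is brighter in the Cxxc1-null than in the WT libraries of each stage.

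The libraries themselves were checked on Cxxc1 and on marker lists. Cxxc1 stood at 11.7 to 17.3 FPKM in WT and 9.19 to 9.57 FPKM in Cxxc1-null pachytene, at 13.7 to 17.6 and 8.29 to 9.57 FPKM in diplotene, and at 12.5 to 12.8 and 2.02 to 3.10 FPKM in meiosis II. The summed level of 9 spermatocyte markers was 7516 to 14987 FPKM over all libraries. WT pachytene replicate 2 and Cxxc1-null diplotene replicate 2 stood apart from their replicates in an earlier look at these data, and results that change without both are given below. The summed level of 6 spermatid markers was 7024 to 9998 FPKM in WT and 1811 to 3967 FPKM in Cxxc1-null meiosis II, and at most 2197 FPKM in the other libraries. Single spermatid markers differed. Averaged over stages 2 of the 6 were called higher in Cxxc1-null cells, Spaca1 (1.16 ± 0.26) and Acrv1 (1.09 ± 0.31), against 11.5% of all genes. Called lower was 1, Prm2 (-1.60 ± 0.44), against 5.13% of all genes. In meiosis II 0 of the 6 passed in limma, and 4 had an unadjusted p under 0.05, against 26.1% of all genes. The summed level of the 9 Sertoli markers in the table was 216 to 321 FPKM in meiosis II and 3.08 to 27.1 FPKM at the earlier stages. None of the spermatid or Sertoli markers was at 0 in all libraries. Their part in the members' results was not tested. In such bulk samples, fewer cells of a type and less RNA per cell cannot be told apart.

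The replicates of the clustered histone genes were spread more widely than those of other genes. For each gene the absolute difference between the 2 libraries of a group, on the log2(FPKM + 1) scale, was averaged over the 6 groups. The median of this average was 0.49 for the 23 tested members. It was 0.31 for all 12956 genes tested, and also 0.31 for the 10030 of them within the members' range of mean level. That range holds most genes tested and does not match the members' levels, so it cannot set spread apart from low level. Hist2h2ac had the widest spread, 2.29: it stood at 48.3 and 0 FPKM in WT pachytene, 26.8 and 0 FPKM in Cxxc1-null pachytene, and at 0 to 2.64 FPKM in the other libraries. The value was high in replicate 1 of either pachytene genotype and 0 in replicate 2, so its group means carry little information. FPKM steps placed most members on few fragments: the levels of low genes were whole multiples of a step set by each library and gene. For the H4 genes Hist1h4a, Hist1h4b, Hist1h4c and Hist1h4d that step was 0.595 to 0.903 FPKM, and other H4 genes had smaller steps. The fragment numbers given below are the smallest whole numbers that these steps allow, and true numbers may be multiples of them.

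Of the testis variants, Hist1h2aa fell in Cxxc1-null cells while its neighbour Hist1h2ba did not pass the test at any stage. In pachytene, Hist1h2aa stood at 8.06 and 8.64 FPKM in WT and at 2.68 and 7.18 FPKM in Cxxc1-null libraries. In diplotene the values were 6.12 and 5.68 FPKM in WT and 0.707 and 2.27 FPKM in Cxxc1-null. In meiosis II they were 3.08 and 2.15 FPKM in WT and 0 and 0.429 FPKM in Cxxc1-null. Every Cxxc1-null library was lower than either WT library of the same stage, and the Cxxc1-null mean was 59.0%, 25.2% and 8.19% of the WT mean in pachytene, diplotene and meiosis II. The log2 difference on the log2(FPKM + 1) scale, which understates the change of low genes, averaged -1.30 ± 0.23 over the stages (± standard error; limma with Benjamini-Hochberg adjustment over all 12956 genes tested, adjusted p = 0.0059). It stayed past the threshold of 0.05 under all 20 alternatives tried, with adjusted p up to 0.0487. Within stages it was -1.59 ± 0.40 in meiosis II (limma adjusted p = 0.033), -1.55 ± 0.40 in diplotene (0.11) and -0.77 ± 0.40 in pachytene (0.54). The meiosis II call was lost without any 1 of the 4 meiosis II libraries, with no filter and in a separate fit, with adjusted p up to 0.184. The gene's level rests on few fragments, 2 to 20 in the pachytene and diplotene libraries, 8 and 6 in WT meiosis II and 0 and 1 in Cxxc1-null meiosis II.

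Hist1h2ba followed stage. In pachytene it stood at 33.8 and 15.6 FPKM in WT and at 23.8 and 23.1 FPKM in Cxxc1-null libraries. Values in diplotene were 8.29 and 6.97 FPKM in WT and 10.6 and 9.36 FPKM in Cxxc1-null, and in meiosis II 2.39 and 2.59 against 1.16 and 0.886 FPKM. The genotypes overlapped in pachytene, the Cxxc1-null libraries were higher in diplotene, and they were lower in meiosis II. The log2 difference between genotypes was 0.02 in pachytene (95% interval -0.67 to 0.71), 0.35 in diplotene (-0.34 to 1.04) and -0.79 in meiosis II (-1.48 to -0.10, limma adjusted p = 0.14), and -0.14 averaged (-0.54 to 0.26). Without both libraries that stood apart, the meiosis II value passed the test with a limma adjusted p of 0.044. The fall with stage passed the test at both steps in WT, by log2 -1.48 ± 0.31 from pachytene to diplotene (limma adjusted p = 0.0082) and -1.30 ± 0.31 from diplotene to meiosis II (0.0063). In Cxxc1-null cells the same steps gave -1.16 ± 0.31 (0.022) and -2.44 ± 0.31 (0.00022). The first WT step was lost in a separate fit and without WT diplotene replicate 2, with adjusted p up to 0.105. The first Cxxc1-null step was lost with a common median and without any 1 of its 4 libraries, with adjusted p up to 0.110, and the later steps held in all 12 alternatives. As a share of the pair's summed FPKM, Hist1h2aa made up 42.4% and 44.9% in WT and 6.26% and 19.5% in Cxxc1-null diplotene, and 56.3% and 45.3% in WT and 0% and 32.6% in Cxxc1-null meiosis II. In pachytene the shares were 19.2% and 35.6% in WT and 10.1% and 23.7% in Cxxc1-null, which overlap. These shares are a description, with no test. Among neighbouring members that each had a promoter window, 9 such divergent pairs of an H2A and an H2B gene were found. This was the only one of these 9 with both genes tested. The 7 members without a window could not enter the search, among them the tested genes Hist2h2be and Hist3h2bb-ps, so further pairs may exist.

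Hist1h1t, the testis H1 gene, was lower in Cxxc1-null cells by a smaller step. It stood at 5.08 and 5.11 FPKM in WT and 2.53 and 2.77 FPKM in Cxxc1-null pachytene, at 4.83 and 2.80 against 2.51 and 2.48 FPKM in diplotene, and at 4.15 and 3.96 against 0.884 and 2.71 FPKM in meiosis II. Every Cxxc1-null library was below the WT range of the same stage, although in diplotene WT replicate 2 came close to them. The Cxxc1-null mean was 52.1%, 65.5% and 44.2% of the WT mean in pachytene, diplotene and meiosis II. The averaged log2 difference was -0.70 ± 0.18 (limma adjusted p = 0.027), and no single stage passed the test, with -0.74 ± 0.31 in pachytene, -0.43 ± 0.31 in diplotene and -0.94 ± 0.31 in meiosis II (limma adjusted p = 0.43, 0.63 and 0.088). The averaged call was lost in 9 of 20 alternatives, with adjusted p up to 0.125. These included leaving out either Cxxc1-null pachytene library, WT diplotene replicate 1, Cxxc1-null diplotene replicate 2 or either WT meiosis II library, both libraries that stood apart, and joining stages by replicate number.

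**Figure D2:**
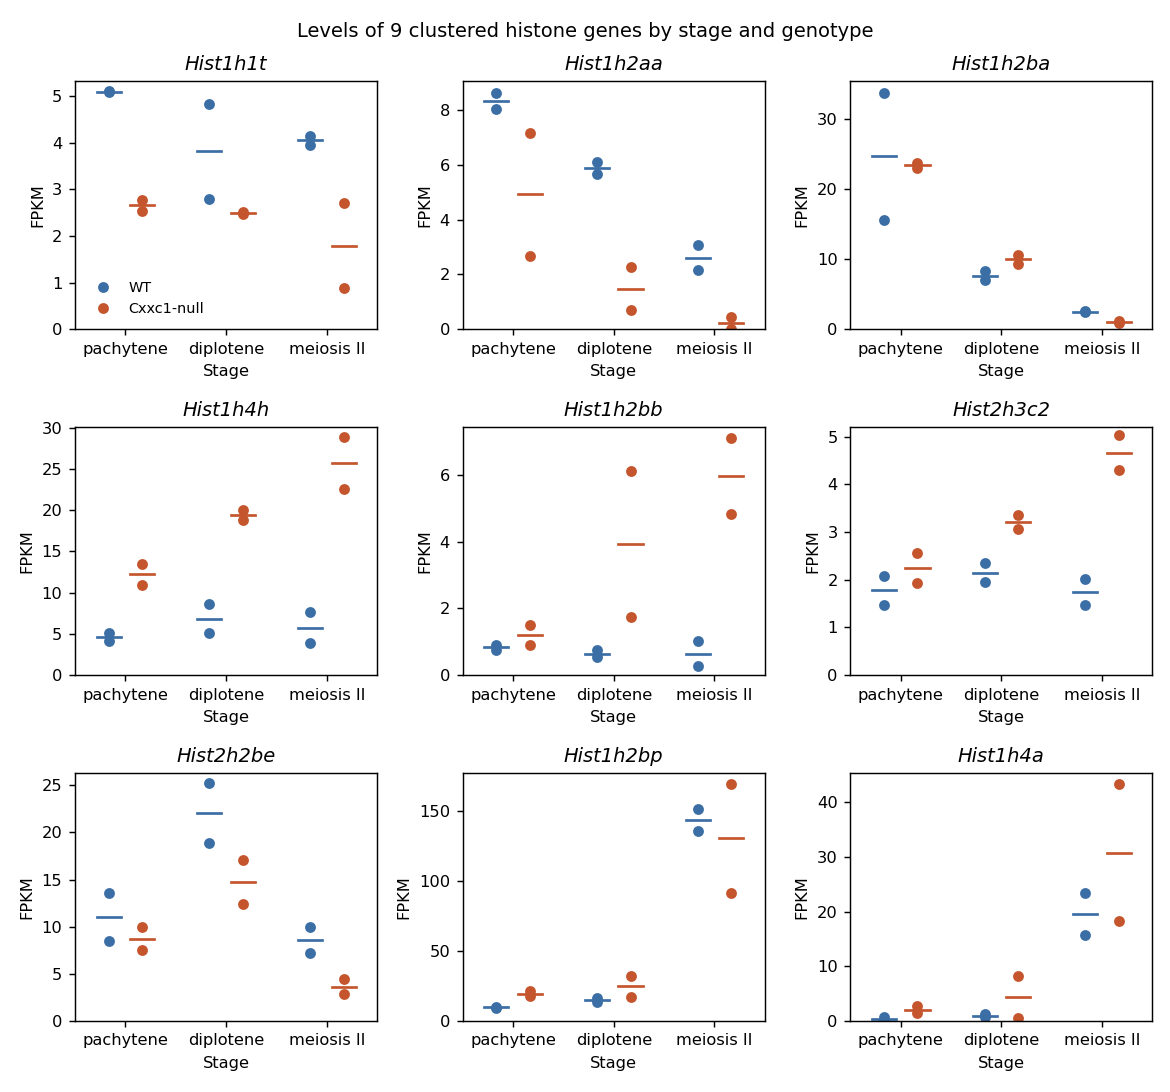
FPKM (vertical axis) of 9 clustered histone genes at the 3 stages (horizontal axis); points are libraries, bars are means of 2 libraries, blue is WT and orange is Cxxc1-null. Hist1h1t and Hist1h2aa are lower and Hist1h4h is higher in both Cxxc1-null libraries at every stage, Hist1h2ba declines with stage in either genotype, and Hist1h2bp and Hist1h4a rise in meiosis II.

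Among the replication-dependent genes, the H4 gene Hist1h4h had the smallest p in the averaged contrast, in which it rose. It stood at 5.11 and 4.11 FPKM in WT and 10.9 and 13.5 FPKM in Cxxc1-null pachytene. In diplotene it stood at 8.57 and 5.06 against 18.7 and 20.0 FPKM, and in meiosis II at 7.59 and 3.90 against 22.6 and 28.8 FPKM. Both Cxxc1-null libraries lay above both WT libraries at every stage. The Cxxc1-null mean was 265%, 284% and 448% of the WT mean in pachytene, diplotene and meiosis II. The averaged log2 difference was 1.56 ± 0.18 (limma adjusted p = 0.00084), and it stayed past the threshold under all 20 alternatives tried, with adjusted p up to 0.0222. In meiosis II the difference was 2.03 ± 0.32 (limma adjusted p = 0.0047), lost in a separate fit of the meiosis II libraries (0.055). In pachytene it was 1.23 ± 0.32 and in diplotene 1.42 ± 0.32 (limma adjusted p = 0.17 and 0.069), the smallest adjusted p of any member in either contrast. Fragment numbers ran from 14 to 99.

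The H2B gene Hist1h2bb rose in Cxxc1-null meiosis II and averaged over stages. It stood at 0.757 and 0.914 FPKM in WT and 1.51 and 0.893 FPKM in Cxxc1-null pachytene, where the genotypes overlap. In diplotene it stood at 0.539 and 0.751 against 1.75 and 6.12 FPKM, and in meiosis II at 0.272 and 1.01 against 7.11 and 4.84 FPKM. In both later stages the Cxxc1-null libraries lay above the WT libraries, and the Cxxc1-null mean in meiosis II was 931% of the WT mean. The averaged difference was 1.26 ± 0.23 (limma adjusted p = 0.0068), past the threshold under all 20 alternatives tried. In meiosis II it was 2.11 ± 0.40 (limma adjusted p = 0.012), and this call was lost without WT replicate 1 or Cxxc1-null replicate 1 of that stage, with adjusted p up to 0.0904. In diplotene it was 1.43 ± 0.40 and did not pass (limma adjusted p = 0.14). The meiosis II difference exceeded that in pachytene by 1.86 ± 0.57, which did not pass the test (limma adjusted p = 0.21). Its WT level rests on 1 to 4 fragments in each library.

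Hist2h3c2, an H3 gene of the Hist2 cluster, rose less. It stood at 2.08 and 1.48 FPKM in WT and 2.57 and 1.93 FPKM in Cxxc1-null pachytene, at 2.36 and 1.94 against 3.07 and 3.36 FPKM in diplotene, and at 2.02 and 1.47 against 5.03 and 4.30 FPKM in meiosis II. The genotypes overlapped in pachytene and were apart at both later stages. The difference was 1.05 ± 0.22 in meiosis II (limma adjusted p = 0.015) and 0.57 ± 0.12 averaged (0.014). The averaged call was lost without both libraries that stood apart and when stages were joined by replicate number, with adjusted p up to 0.156. The meiosis II call was lost without WT replicate 2 or either Cxxc1-null replicate of that stage and in a separate fit. Its neighbour Hist2h3c1, a near-identical copy, stood at 1.37 and 1.32 against 0.729 and 0.690 FPKM in meiosis II and passed no genotype test.

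Hist2h2be, an H2B gene of the Hist2 cluster, was lower in Cxxc1-null cells. It stood at 8.49 and 13.6 FPKM in WT and 7.52 and 9.93 FPKM in Cxxc1-null pachytene, at 18.9 and 25.2 against 12.4 and 17.0 FPKM in diplotene, and at 7.25 and 9.99 against 2.79 and 4.46 FPKM in meiosis II. The genotypes overlapped in pachytene and were apart at both later stages. Replicate 2 was the higher library in every group. Between libraries of the same replicate number, the Cxxc1-null library was the lower at every stage, although pairing by number was not assumed. The averaged difference was -0.64 ± 0.18 (limma adjusted p = 0.038), and that in meiosis II was -1.06 ± 0.31 (0.058). The averaged call was lost in 12 of 20 alternatives, with adjusted p up to 0.227. Of the 12 fits that leave out 1 library, it held in those without WT pachytene replicate 1, Cxxc1-null diplotene replicate 2 or Cxxc1-null meiosis II replicate 2 and was lost in the others. In WT its level rose from pachytene to diplotene by 0.96 ± 0.31 (limma adjusted p = 0.046), and fell by 1.26 ± 0.31 from diplotene to meiosis II (0.0077). The rise was lost in 6 of 12 alternatives, among them without WT pachytene replicate 1 or either WT diplotene replicate, and the fall without WT diplotene replicate 2 or WT meiosis II replicate 1.

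Counted over the 23 tested members, the genotype contrasts gave between 0 and 6 calls. In pachytene 0 members passed the threshold in limma, against 0.355% of all genes (0.34% higher and 0.0154% lower). An unadjusted p under 0.05 was found for 4 members, 17.4% of the 23, against 10.7% of all genes. In diplotene 0 members passed, against 0.787% of all genes (0.702% higher and 0.0849% lower). For 3 members, 13% of the 23, the unadjusted p was under 0.05, against 13.5% of all genes. In meiosis II 3 members were higher and 1 was lower, which is 4 of 23, against 10.5% of all genes (6.14% higher and 4.35% lower). Averaged over stages 3 were higher and 3 lower, 6 of 23, against 16.7% of all genes (11.5% higher and 5.13% lower). The averaged contrast uses the same meiosis II libraries. With no filter, when 49 members were tested, 4 were higher and 1 lower averaged and 4 higher and 0 lower in meiosis II. The median log2 difference of the 23 members was 0.29 in diplotene and 0.06 averaged, against 0.09 and 0.05 for all genes, and it was -0.00061 in pachytene and 0 in meiosis II, against 0.04 and 0.02. The averaged count was 3 without both libraries that stood apart, and the meiosis II count was 1 without Cxxc1-null meiosis II replicate 1 and 2 without either WT library. Of the 23, Hist1h4h alone had both Cxxc1-null libraries above both WT libraries in all 3 stages, against 8.24% of all genes. Hist1h1t and Hist1h2aa had both below, against 3.91% of all genes. No member passed the test of a genotype difference that varies with stage, against 0.054% of all genes (smallest limma adjusted p 0.45). At an unadjusted p under 0.05 there was 1 member, 4.35% of the 23, against 8.77% of all genes.

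**Figure D3:**
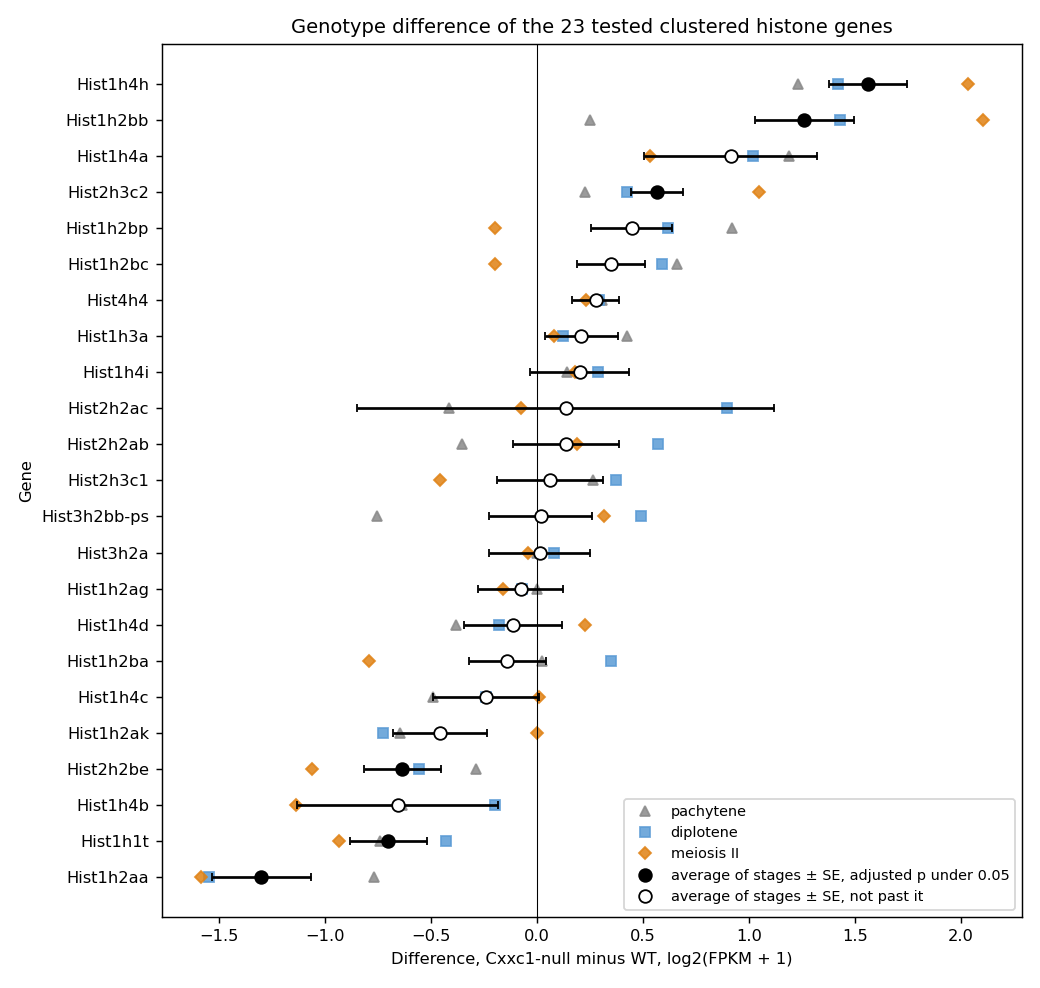
Difference between Cxxc1-null and WT on the log2(FPKM + 1) scale (horizontal axis) for the 23 tested clustered histone genes (vertical axis); circles are the average over the 3 stages ± standard error, filled where the adjusted p is under 0.05, and small symbols are the single stages. Hist1h4h, Hist1h2bb and Hist2h3c2 are filled on the right and Hist1h2aa, Hist1h1t and Hist2h2be on the left, with the other 17 between or carrying wider errors.

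Stage moved other members. Hist1h2bp, an H2B gene, was the most abundant clustered histone transcript of meiosis II. It stood at 9.999 and 9.49 FPKM in WT pachytene, 16.2 and 13.7 FPKM in WT diplotene and 136 and 152 FPKM in WT meiosis II. In Cxxc1-null libraries it stood at 17.6 and 21.2, 17.1 and 32.1, and 91.8 and 169.7 FPKM. The meiosis II libraries lay far above all earlier ones in either genotype. The rise from diplotene to meiosis II was 3.18 ± 0.33 in WT (limma adjusted p = 5.5e-05) and 2.37 ± 0.33 in Cxxc1-null cells (0.00038). The genotype difference was 0.92 ± 0.33 in pachytene, where both Cxxc1-null libraries were higher, and -0.20 ± 0.33 in meiosis II (limma adjusted p = 0.34 and 0.76). Its divergent H2A neighbour Hist1h2an reached 1.05 FPKM in 1 library and was at 0 in the others.

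Hist1h4a, an H4 gene, shared this rise. It stood at 0 and 0.726 FPKM in WT pachytene, 0.643 and 1.19 FPKM in WT diplotene and 23.3 and 15.7 FPKM in WT meiosis II. In Cxxc1-null libraries it stood at 2.70 and 1.42, 0.595 and 8.25, and 18.2 and 43.3 FPKM, with replicates far apart in diplotene and meiosis II. The rise from diplotene to meiosis II was 3.41 ± 0.70 in WT (limma adjusted p = 0.0028) and 2.92 ± 0.70 in Cxxc1-null cells (0.0070). The Cxxc1-null call was lost in a separate fit and without Cxxc1-null meiosis II replicate 2, with adjusted p up to 0.0642.

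The H2B gene Hist1h2bc and the H3 gene Hist1h3a rose at the same step from a low level. Hist1h2bc was listed at 0 in both WT diplotene libraries and stood at 4.93 and 2.93 FPKM in WT meiosis II, and at 0.251 and 0.805 against 4.38 and 2.29 FPKM in Cxxc1-null cells. Hist1h3a stood at 0.216 and 1.00 FPKM in WT diplotene and 3.26 and 3.64 FPKM in WT meiosis II, and at 0.399 and 1.06 against 2.95 and 4.60 FPKM in Cxxc1-null cells. All 4 meiosis II libraries lay above all 8 earlier ones for either gene. The WT differences on the log2(FPKM + 1) scale were 2.27 ± 0.28 for Hist1h2bc and 1.51 ± 0.30 for Hist1h3a (limma adjusted p = 0.00013 and 0.0021). Hist4h4, at 0.452 and 0.321 FPKM in WT diplotene and 1.37 and 0.774 FPKM in WT meiosis II, gave 0.57 ± 0.19 (0.036). It did not pass after quantile normalization or scaling to a common median, where its difference came down to as little as 0.03, nor without either WT diplotene replicate or WT meiosis II replicate 1.

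Other members fell with stage. Hist1h4d, an H4 gene, stood at 10.8 and 5.81 FPKM in WT pachytene and 1.29 and 1.79 FPKM in WT diplotene, and at 5.40 and 6.39 against 1.19 and 1.27 FPKM in Cxxc1-null cells. The H4 gene Hist1h4i stood at 3.90 and 1.93 FPKM in WT pachytene and 0.427 and 0.595 FPKM in WT diplotene. Neither gene overlapped between those WT stages. The WT differences were -1.83 ± 0.40 for Hist1h4d and -1.33 ± 0.40 for Hist1h4i (limma adjusted p = 0.0095 and 0.036), and the Hist1h4d fall in Cxxc1-null cells was -1.63 ± 0.40 (0.016). The WT calls were lost in 4 of 12 and 7 of 11 alternatives, among them without WT pachytene replicate 1 or WT diplotene replicate 1 and, for Hist1h4i, WT diplotene replicate 2. The Hist1h4d call in Cxxc1-null cells was lost without Cxxc1-null pachytene replicate 2 or either Cxxc1-null diplotene replicate. Hist3h2a, an H2A gene of the Hist3 cluster, stood at 29.3 and 13.1 FPKM in WT pachytene, 22.7 and 11.7 FPKM in WT diplotene and 7.99 and 5.39 FPKM in WT meiosis II. Replicate 1 was the higher library of this gene in every group of either genotype. Its step from diplotene to meiosis II was -1.19 ± 0.41 in WT (limma adjusted p = 0.036), lost in 5 of 12 alternatives with adjusted p up to 0.247, and -1.31 ± 0.41 in Cxxc1-null cells (0.025). The WT call was lost without WT diplotene replicate 1 or either WT meiosis II replicate, and the Cxxc1-null call without Cxxc1-null diplotene replicate 1 or either Cxxc1-null meiosis II replicate.

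Members called within Cxxc1-null cells alone were Hist1h2aa, Hist3h2bb-ps and Hist2h3c1. Hist1h2aa gave -1.22 ± 0.40 from pachytene to diplotene (limma adjusted p = 0.045), lost in 6 of 12 alternatives, among them without Cxxc1-null pachytene replicate 2 or Cxxc1-null diplotene replicate 1. Hist3h2bb-ps, an H2B pseudogene, stood at 0.382 and 0 FPKM in Cxxc1-null pachytene, 4.79 and 3.77 FPKM in diplotene and 1.87 and 0.612 FPKM in meiosis II. It was highest in diplotene in WT as well, at 3.27 and 2.28 FPKM against 0.256 to 1.85 FPKM at the other stages. Its Cxxc1-null steps were 2.16 ± 0.42 (limma adjusted p = 0.0073), lost without Cxxc1-null pachytene replicate 2, and then -1.29 ± 0.42 (0.029), lost in 5 of 11 alternatives, among them without either Cxxc1-null diplotene replicate or Cxxc1-null meiosis II replicate 2. Hist2h3c1 stood at 3.09 and 4.77 FPKM in Cxxc1-null diplotene and 0.729 and 0.690 FPKM in Cxxc1-null meiosis II, a difference of -1.51 ± 0.43 (0.016). That call was lost without Cxxc1-null diplotene replicate 2 or either Cxxc1-null meiosis II replicate. Whether these steps differ from those of WT cells was tested as the interaction above, which no member passed.

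By count, 1 member rose and 3 fell from WT pachytene to WT diplotene, against 26.5% of all genes (9.08% higher and 17.4% lower). From WT diplotene to WT meiosis II 5 rose and 3 fell, against 45% (26.1% higher and 18.9% lower). In Cxxc1-null cells 1 rose and 3 fell at the first step, against 29.3% (11.9% higher and 17.4% lower), and 4 rose and 5 fell at the second, against 44.1% (25.3% higher and 18.8% lower). The 2 steps of a genotype share its diplotene libraries. The first WT count, 4 of 23, moved both up and down when single WT libraries were left out, and it was 0 in a separate fit. The first Cxxc1-null count was 0 without Cxxc1-null pachytene replicate 2 and 2 without either Cxxc1-null diplotene replicate. Scaling changed the direction of the second WT split: quantile normalization gave 4 rises and 7 falls and scaling to a common median 4 and 6, while the median of all genes moved by -0.25 and -0.26. After quantile normalization the first Cxxc1-null step gave 2 rises and 2 falls. The 6 tested members that passed in no contrast were Hist1h2ag, Hist1h2ak, Hist2h2ab, Hist2h2ac, Hist1h4b and Hist1h4c. Of these Hist1h4c was at 1.27 to 8.16 FPKM in all 12 libraries and Hist2h2ab at 0.416 to 4.41 FPKM, and the others were at 0 in at least 1 library.

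In WT the summed level of all 68 members was largest in meiosis II, where Hist1h2bp made up 60.7% and 67.9% of it. The sum was 192 and 101 FPKM in WT and 151 and 125 FPKM in Cxxc1-null pachytene, 111 and 91.4 against 112 and 140 FPKM in diplotene, and 223 and 223 against 189 and 293 FPKM in meiosis II. Cxxc1-null meiosis II replicate 1 was thus just below WT pachytene replicate 1. Hist1h2bp made up 48.5 to 67.9% of the sum in meiosis II, and over all libraries 5.21 to 67.9%. Without it the sum was 71.6 to 182 FPKM, with WT pachytene replicate 1 highest and WT meiosis II replicate 2 lowest. The H2A sum fell from a range of 24.6 to 89.2 FPKM in pachytene to 12.6 to 16.1 FPKM in meiosis II, with Hist2h2ac at 48.3 FPKM in the highest library. The H4 sum was 53.0 and 80.5 FPKM in Cxxc1-null and 41.8 and 29.6 FPKM in WT meiosis II. The sums are given as a description, with no test.

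**Figure D4:**
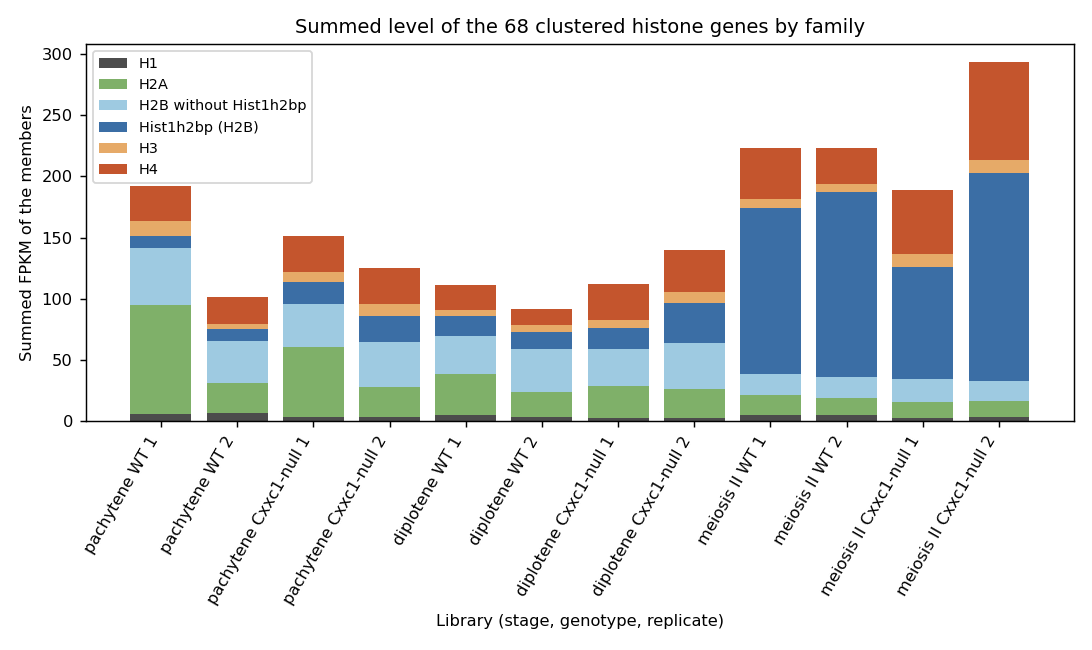
Summed FPKM (vertical axis, from 0) of the 68 clustered histone genes in each of the 12 libraries (horizontal axis), stacked by histone family with Hist1h2bp apart from the other H2B genes. The Hist1h2bp segment is 48.5 to 67.9% of each meiosis II bar, and the H2A segment is tallest in WT pachytene replicate 1.

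Histone genes outside the clusters mostly yield polyadenylated mRNA. Of 11 replacement histone genes 0 passed a genotype test in limma, against 16.7% of all genes averaged over stages. In meiosis II 1 had an unadjusted p under 0.05, against 26.1% of all genes, and at the other stages and averaged 0 had. From WT diplotene to WT meiosis II 0 rose and 4 fell, against 26.1% higher and 18.9% lower of all genes, with a median of -0.56 against 0.02. Those with the smallest p were H2afy, the macroH2A1 gene (-1.33 ± 0.18, limma adjusted p = 0.00020), the H3.3 gene H3f3b (-1.83 ± 0.32) and the H2A.Z gene H2afz (-1.05 ± 0.22). Of 9 listed germline histone genes outside the clusters 4 were in the table and 3 were tested. All 3 rose at that step: H1fnt, the spermatid H1T2 gene, by 4.30 ± 0.51 (limma adjusted p = 0.00011), Hils1, a spermatid linker histone gene, by 4.37 ± 0.62, and H2afb1 by 4.04 ± 0.79. In limma 0 of the 3 passed a genotype test. An unadjusted p under 0.05 was found for 1 in pachytene, 1 in diplotene, 0 in meiosis II and 1 averaged. The shares of all genes were 10.7%, 13.5%, 26.1% and 32.2%. The genotype difference was above 0 for 3 of 3 in pachytene and in diplotene, with medians of 0.59 and 1.11 against 0.04 and 0.09 for all genes. In meiosis II it was above 0 for 1 of 3, with a median of -0.32 against 0.02. The spermatid and Sertoli marker sums given above also rose from WT diplotene to WT meiosis II. At that step 6 of 6 tested spermatid and 6 of 6 tested Sertoli markers passed as higher. Their part in these rises was not tested.

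Genes that make and process histone mRNA, and those for histone chaperones and S phase, are given beside the shares of all genes called, 16.7% averaged over stages and 10.5% in meiosis II. The shares of all genes at an unadjusted p under 0.05 were 32.2% averaged and 26.1% in meiosis II. Of 15 genes for histone transcription and 3′ processing 2 rose and 0 fell averaged over stages, with a median of 0.16 against 0.05 for all genes. These were Eri1, the exonuclease of the histone stem loop (0.58 ± 0.14, limma adjusted p = 0.021), and Cstf2, a cleavage stimulation factor subunit (0.67 ± 0.16, 0.021). Within meiosis II 0 of the 15 passed in limma, and 3 had an unadjusted p under 0.05. Of 16 cleavage and polyadenylation genes 1 rose, Cpsf6, a subunit of cleavage factor Im, by 1.43 ± 0.22 in meiosis II (limma adjusted p = 0.0049) and 0.55 ± 0.13 averaged (0.019). Of 24 tested histone chaperone genes 2 fell averaged over stages, Hirip3 (-0.58 ± 0.12, limma adjusted p = 0.011) and the H1 and H3 chaperone Nasp (-0.47 ± 0.10, 0.012). In meiosis II 1 fell, the H3 and H4 chaperone Asf1b (-0.99 ± 0.26, 0.039). Of 21 tested S phase genes 1 rose in meiosis II, Orc1, a subunit of the origin recognition complex (0.88 ± 0.21, limma adjusted p = 0.026), and 0 passed averaged over stages, with 5 at an unadjusted p under 0.05. In WT cells 8 of the 21 fell and 1 rose from pachytene to diplotene, against 17.4% lower and 9.08% higher of all genes. The median was -0.67 against -0.11 for all genes.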

How the data were processed

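RNA from 12 libraries was sequenced after Smart-seq2 cDNA synthesis with oligo-dT primers, per the labels' protocols. The authors deposited 1 table of FPKM values for 23235 genes. The submitters' processing notes name TopHat2 2.1.1, Cufflinks 2.2.1 and mm9; the role of each tool is not stated. Samples were grouped by title. No fragment totals were given, but the FPKM of 82.4% of 7675 low genes were whole multiples of library steps (tolerance 0.02 of a step), which placed relative depth between 1 and 1.52. Since this left many genes without a whole number, no count test was run. An exact 0 is reported as listed at 0.

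Genes reaching 1 FPKM in 2 or more libraries (12956) were analysed as log2(FPKM + 1) in limma 3.58.1 (R 4.3.3). The model fitted group means to all 12 libraries (6 residual degrees of freedom), with variances moderated along a trend and Benjamini-Hochberg adjusted p under 0.05 as threshold. Genotype contrasts were made within and averaged over stages, and stage contrasts within genotype, those of Cxxc1-null cells being added after the data were seen. The model was tested on simulated data. The testis genes, the 10 members with the highest mean and every member called are named, and up to 3 genes of each list. Members were matched to RefSeq (GRCm38.p6) by older symbol, and 61 had a promoter window. The members, gene lists and tests were chosen with earlier results of these data known.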

Additional observations from a re-analysis of the deposited data

How the results depend on the processing

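Counts of clustered histone genes called, as given in the report, were recomputed under other settings, with limma each time. With a pseudocount of 0.1 the diplotene genotype count was 1, and the counts from pachytene to diplotene were 2 in WT and 2 in Cxxc1-null cells. With no filter (49 members) the genotype calls were 4 higher and 0 lower in meiosis II and 4 higher and 1 lower averaged. With a filter of 5 FPKM, which leaves 13 members, the count from WT diplotene to WT meiosis II was 5. Fits of the compared groups alone gave 1 in the meiosis II genotype contrast and 0 from WT pachytene to WT diplotene; the averaged contrast and the interaction use all groups and have no such fit. Without both libraries that stood apart the averaged genotype count was 3 and that from WT pachytene to WT diplotene 7. With stages joined by replicate number the averaged count was 3. Leaving out 1 library at a time gave 0 in pachytene, 0 to 1 in diplotene, 1 to 3 in meiosis II and 4 to 6 averaged for genotype. For stage it gave 1 to 7 and 6 to 7 in WT and 0 to 4 and 6 to 10 in Cxxc1-null cells, and 0 for the interaction; a lone library was assumed to vary like the other groups. The Hist1h2ba genotype difference in pachytene turned to -0.026 with a common median and to -0.51 without both libraries that stood apart. Leaving out 1 library it ran from -0.51 to 0.56, and its averaged difference from -0.32 to 0.038; none of these passed the test. The labels do not say whether a replicate number marks a shared animal or day. Deviations of same-numbered libraries correlated at -0.25 to 0.42, over 0.1 in 11 of 15 pairs of groups but not in the others, so pairing was neither assumed nor excluded. With the replicate block the counts were 0, 0, 5 and 6 for genotype in pachytene, diplotene, meiosis II and averaged, 4 and 9 for stage in WT, 6 and 10 in Cxxc1-null cells and 0 for the interaction. The causes were not tested. Most members rest on few fragments and on 2 libraries a group, which limits what can be detected.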
